A study of Mus musculus with 4 samples.

Results

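Gbp2, Gbp3, Gbp4, Gbp5 and Gbp7, which encode guanylate-binding proteins, and Irgm1, Irgm2, Igtp, Iigp1 and Tgtp1, which encode immunity-related GTPases, are 10 mouse genes that interferons switch on. They were taken by name, and a probe was counted as theirs where its accession maps to the gene's symbol. Of the 10 genes, 9 had at least 1 such probe, and no probe mapped to Tgtp1. The array covered 45526 genes or unnamed transcripts, of which 20505 were bright enough to test. The 9 genes had 11 probes, 3 of them for Irgm1. All 11 were well above background on all 4 arrays and none was saturated, so the filter on dim probes removed no measured member.

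The arrays came from male C57BL/6 mice that were either Irf4-/- or wild type, with 2 arrays per genotype. Irf4 is a transcription factor that T cells induce when their antigen receptor is engaged, and the comparison asks how newly activated CD4+ T cells differ without it. Naive splenic CD4+ T cells, positive for CD62L and negative for CD44, were cultured with an antibody to CD3e and mitomycin C-treated syngeneic antigen-presenting cells. Living CD4+ cells were then sorted on day 2, and total RNA was labelled with Cy3. No interferon is named among the additions to the cultures. The age of the mice, the part of Irf4 that was deleted, the genotype of the antigen-presenting cells and the number of animals behind each array are not given in the sources used here. The p-values therefore measure the spread between these arrays, and n is 2 arrays per genotype throughout.

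Guanylate-binding proteins (GBPs) are large GTPases, and immunity-related GTPases (IRGs) are smaller ones, that cells make in response to interferon gamma and, to a varying degree, type I interferons. Both families assemble on vacuoles that hold intracellular parasites or bacteria and help to break them open. Interferon gamma acts through promoter elements called GAS and through the transcription factor Irf1, whereas type I interferons act mainly through interferon-stimulated response elements (ISRE), which Irf9 helps to recognise. Among the IRGs, Irgm1, Irgm2 and Igtp are regulators that keep the effector GTPases inactive on the cell's own membranes, and Iigp1 and Tgtp1 are effectors that load onto the vacuole.

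The Irf4 probe was at 4.23 and 4.04 on the Irf4-/- arrays and at 5.03 and 4.74 on the wild-type arrays, in log2 signal relative to the array's 75th percentile, the scale used for every level here. The log2 difference was -0.75 ± 0.20 (SE; limma, adjusted p = 0.231) and was not called. A second Irf4 probe, also above background on all 4 arrays, differed by -0.37. Since the place of these probes relative to the deletion is unknown, they check nothing about the deletion. Each array had 25677 to 28725 of its 56605 probes well above background. All 4 arrays shared 1 slide. Both first replicates were in slide row 1 and both second ones in slide row 2, while the genotypes lay in different slide columns, so slide column and genotype cannot be told apart. All 7 CD4+ T cell markers were above background on all 4 arrays, and their summed signal, of which Cd3d was the brightest part, was 9.82 and 9.71 in Irf4-/- cells against 9.84 and 9.71 in wild-type cells. Within this list Cd5 differed by 0.86, Cd28 by -0.48 and Cd2 by -0.48, each at an unadjusted p under 0.05 in limma and none passing adjustment. Markers of other cells were also read, and their part in the results was not tested. Of 12 macrophage, monocyte and dendritic cell markers, 6 were above background on all 4 arrays and Lyz2, Itgax, Adgre1 and Clec9a on none, with a summed signal of 6.08 and 6.38 in Irf4-/- cells against 6.06 and 6.37 in wild-type cells. Siglech made up most of that sum through 1 probe, and its second probe was above background on 0 of 4 arrays. Mpeg1 differed by 1.25, Fcer1g by 0.90 and Cd68 by 0.60, each at an unadjusted p under 0.05 in limma and none passing adjustment. Among the other tested markers of this list, Csf1r differed by 0.0071 and Siglech by 0.030. Itgam differed by -0.30, with both Irf4-/- arrays below both wild-type arrays, and its dimmer second probe by 0.63. The second Mpeg1 probe was also above background on 0 of 4 arrays. For 8 B cell markers, 6 above background on all 4 arrays and Ebf1 on none, the sum was 2.31 and 0.95 in Irf4-/- cells against 1.41 and 0.40 in wild-type cells. For 4 NK cell markers, 2 above background on all 4 arrays and Ncr1 on none, it was 3.28 and 2.93 in Irf4-/- cells against 1.72 and 1.43 in wild-type cells. Eomes and Klrd1 made up nearly all of the NK cell sum. They differed by 1.44 and 1.87, each at an unadjusted p under 0.05 in limma and none passing adjustment. Klrb1c was above background on 1 array of each genotype and was not tested. Of 2 CD8 T cell markers, 1 was above background on all 4 arrays, and the sum was 2.25 and 2.15 in Irf4-/- cells against 3.13 and 3.22 in wild-type cells. That marker, Cd8b1, differed by -0.98. Of 7 tested B cell markers, 6 differences were positive and 1 negative, and Cd22 differed by 0.56. Cd8b1 and Cd22 were each at an unadjusted p under 0.05 in limma and did not pass adjustment. Over all tested genes, 6.35% were higher and 5.01% lower at that unadjusted p.

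The promoters were searched for the letters of the GAS and ISRE elements. RefSeq promoter windows (GRCm38.p6, 250 bases before to 50 after the start site) were matched for 8 of the 10 genes, all but Gbp4 and Iigp1. Each stretch below is printed 5′ to 3′ on the gene's own strand, with 36 bases before its first ISRE core and up to 24 after its last. Capitals mark the ISRE core, GAAANNGAAA or its reverse complement, and the GAS motif, TTCNNNGAA, which reads the same on both strands. The stretches of Gbp2 (chr3:142620568-142620637, plus strand), Gbp3 (chr3:142559963-142560038, plus strand), Gbp5 (chr3:142496733-142496802, plus strand) and Gbp7 (chr3:142530247-142530316, plus strand) are shown because these GBP genes lie in 1 cluster and gave genotype differences of both signs. Those of Irgm1 (chr11:48871421-48871486, minus strand), Irgm2 (chr11:58214877-58214946, plus strand), Igtp (chr11:58199486-58199555, plus strand) and Tgtp1 (chr11:48992290-48992359, minus strand) show how the IRG elements are laid out.
Gbp2: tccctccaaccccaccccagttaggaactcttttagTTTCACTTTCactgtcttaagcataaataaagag
Gbp3: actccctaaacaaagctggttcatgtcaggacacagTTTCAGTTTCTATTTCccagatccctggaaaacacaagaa
Gbp5: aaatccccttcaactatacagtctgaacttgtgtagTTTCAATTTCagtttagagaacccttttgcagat
Gbp7: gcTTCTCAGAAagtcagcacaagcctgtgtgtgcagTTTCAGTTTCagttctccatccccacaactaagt
Irgm1: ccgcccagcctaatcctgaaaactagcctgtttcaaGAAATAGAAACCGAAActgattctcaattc
Irgm2: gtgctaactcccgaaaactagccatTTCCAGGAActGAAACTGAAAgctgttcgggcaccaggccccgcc
Igtp: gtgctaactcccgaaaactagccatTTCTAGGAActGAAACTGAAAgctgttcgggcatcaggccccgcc
Tgtp1: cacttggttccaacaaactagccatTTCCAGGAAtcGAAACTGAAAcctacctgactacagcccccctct

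All 8 genes held an ISRE core in at least 1 window, against 3.44% of 32851 promoter windows in the table. In Gbp2, Gbp3, Gbp5 and Gbp7 it was on the strand opposite to the gene, and in the 4 IRG genes on the gene's own strand. Gbp3 and Irgm1 each held 2 cores that overlap each other, and a second Gbp3 start site in the table held none. In 7 of the 8 genes a core lay wholly within 80 bases of the start site, and in Gbp5 it began at position -165 relative to that site. A GAS motif was found in 5 of the 8 genes (Gbp5, Gbp7, Irgm2, Igtp and Tgtp1), against 8.3% of all windows, and no GAS motif overlapped an ISRE core. In Irgm2, Igtp and Tgtp1 the GAS motif stood 2 bases before the core. The printed stretches of Igtp and Irgm2 were identical at 68 of 70 bases, and those of Tgtp1 and Irgm2 at 44 of 70. For comparison, 10 of 17 type I interferon target genes with a window (58.8%) held the ISRE core and 4 of 17 (23.5%) the GAS motif. These counts were made per gene, whereas the shares of 3.44% and 8.3% are per window, so the units differ. A motif match describes the letters in the window and is no evidence of binding.

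**Figure D1:**
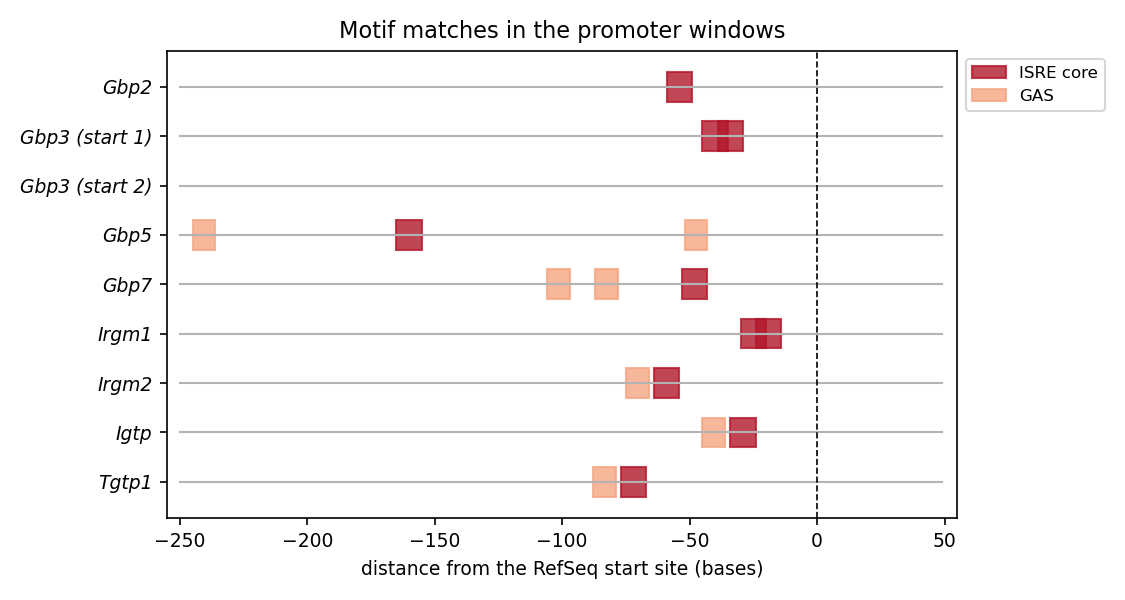
Positions of the ISRE core (dark red) and the GAS motif (light orange) in the RefSeq promoter windows of 8 member genes, in bases from the start site (dashed line at 0). Every gene has an ISRE core, 7 of 8 within 80 bases of the start site, and the GAS motif lies directly before it in Irgm2, Igtp and Tgtp1; the second Gbp3 start site has neither.

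Among the GBP genes on chromosome 3, Gbp3 and Gbp7 were higher on both Irf4-/- arrays than on both wild-type arrays, Gbp2 was lower on both, and Gbp5 overlapped. None of these differences passed the test over all genes. In a bulk sample, fewer cells that express a gene and less RNA per cell cannot be told apart. Gbp2 encodes a GBP that mouse cells recruit to the Toxoplasma vacuole. It was at 5.64 and 5.90 on the Irf4-/- arrays, against 6.27 and 6.61 on the wild-type arrays. Both Irf4-/- arrays lay below both wild-type arrays. The means were 5.77 ± 0.18 (SD) in Irf4-/- cells and 6.44 ± 0.24 in wild-type cells, a log2 difference of -0.67 ± 0.21 (SE; 95% interval -1.22 to -0.12; 1.59-fold lower; limma, adjusted p = 0.321). The difference was -0.63 in slide row 1 and -0.71 in slide row 2. Gbp3, its neighbour in the same cluster, was at 2.50 and 2.67 on the Irf4-/- arrays, against 1.64 and 1.97 on the wild-type arrays. Both Irf4-/- arrays lay above both wild-type arrays. The mean was 2.58 ± 0.12 (SD) in Irf4-/- cells and 1.80 ± 0.23 in wild-type cells, and the log2 difference was 0.78 ± 0.20 (SE; 95% interval 0.26 to 1.30; 1.72-fold higher; limma, adjusted p = 0.226), with 0.86 in row 1 and 0.70 in row 2.

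Gbp7, which in mouse macrophages helps to assemble the NADPH oxidase, showed the largest difference of the 9 genes. It was at 1.30 and 1.80 on the Irf4-/- arrays, against 0.55 and 0.78 on the wild-type arrays, with no overlap between the genotypes. The mean was 1.55 ± 0.36 (SD) in Irf4-/- cells and 0.66 ± 0.16 in wild-type cells. The log2 difference was 0.89 ± 0.24 (SE; 95% interval 0.27 to 1.51; 1.85-fold higher; limma, adjusted p = 0.244), with 0.75 in row 1 and 1.02 in row 2. Gbp5, which promotes inflammasome assembly in mouse macrophages, was at 2.90 and 2.97 on the Irf4-/- arrays, against 2.93 and 3.30 on the wild-type arrays. The genotypes overlapped, because wild-type replicate 1 lay between the Irf4-/- arrays. The log2 difference was -0.18 ± 0.20 (SE; 95% interval -0.70 to 0.35; limma, adjusted p = 0.900), and without wild-type replicate 2 it was 0.0072. Gbp4, which lies in the other GBP cluster on chromosome 5, was at 2.96 and 3.36 on the Irf4-/- arrays, against 2.79 and 3.06 on the wild-type arrays. Irf4-/- replicate 1 fell between the wild-type arrays, and the log2 difference was 0.24 ± 0.22 (SE; 95% interval -0.34 to 0.81; limma, adjusted p = 0.856).

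Among the regulatory IRG genes, Irgm1 had the largest difference, and that of Igtp was close to 0. Irgm1, whose product protects mouse CD4+ T cells from death during interferon gamma responses, was at 4.26 and 4.64 on the Irf4-/- arrays, against 4.05 and 3.91 on the wild-type arrays. Both Irf4-/- arrays lay above both wild-type arrays. The mean was 4.45 ± 0.26 (SD) in Irf4-/- cells and 3.98 ± 0.10 in wild-type cells. The log2 difference was 0.47 ± 0.21 (SE; 95% interval -0.07 to 1.00; 1.38-fold higher; limma, adjusted p = 0.519), with 0.21 in row 1 and 0.72 in row 2. Its other probes differed by 0.41 and 0.36 in the same direction. Irgm2 was at 4.85 and 5.22 on the Irf4-/- arrays, against 4.84 and 4.83 on the wild-type arrays. The Irf4-/- arrays were the higher ones, but Irf4-/- replicate 1 exceeded wild-type replicate 1 by only 0.0060. The log2 difference was 0.20 ± 0.20 (SE; 95% interval -0.32 to 0.72; limma, adjusted p = 0.881). Igtp, also known as Irgm3, was at 7.11 and 7.34 on the Irf4-/- arrays, against 7.04 and 7.34 on the wild-type arrays. The genotypes overlapped, and the log2 difference was 0.036 ± 0.20 (SE; 95% interval -0.48 to 0.56; limma, adjusted p = 0.992). Its sign turned with median scaling (-0.073) and with normexp background correction (-0.077).

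The effector gene Iigp1, whose product Irga6 loads onto the Toxoplasma vacuole, was at 4.88 and 5.65 on the Irf4-/- arrays, against 4.99 and 5.03 on the wild-type arrays. The Irf4-/- arrays lay on either side of the wild-type ones, and their spread was the widest of any member, at an SD of 0.55 in Irf4-/- cells against 0.029 in wild-type cells. The log2 difference was 0.26 ± 0.30 (SE; 95% interval -0.50 to 1.02; limma, adjusted p = 0.900). It was -0.11 in row 1 and 0.62 in row 2, and -0.13 without Irf4-/- replicate 2. Tgtp1 has a close relative, Tgtp2, in the same chromosome 11 cluster, and a probe for 1 of these genes may also bind transcripts of the other. The Tgtp2 probe was at 8.14 and 8.37 on the Irf4-/- arrays, against 8.06 and 8.13 on the wild-type arrays. Both Irf4-/- arrays lay above both wild-type arrays, with a log2 difference of 0.16 ± 0.18 (SE; limma, adjusted p = 0.897).

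**Figure D2:**
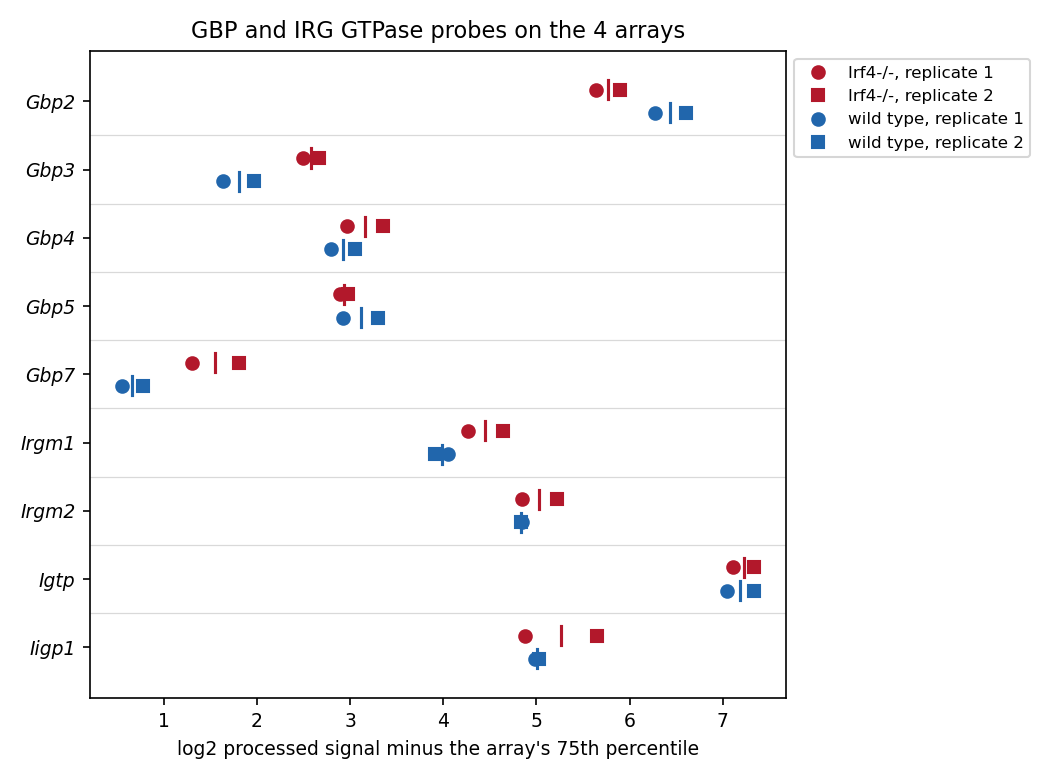
Level of the 9 measured genes on each array, as log2 processed signal minus the array's 75th percentile (x axis), with Irf4-/- arrays in red above wild-type arrays in blue; circles are replicate 1, squares replicate 2, and vertical bars the mean of 2 arrays. Red lies wholly right of blue for Gbp3, Gbp7, Irgm1 and Irgm2, wholly left for Gbp2, and the colours overlap for the other 4 genes; levels of different genes come from different probes and are not comparable.

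In all, 0 of the 9 measured genes passed an adjusted p under 0.05 in limma, in an array where 0.493% of tested genes passed as higher and 0.244% as lower in Irf4-/- cells. At an unadjusted p under 0.05 there were 2 of 9 higher (Gbp3 and Gbp7), against 6.35% of all tested genes, and 1 of 9 lower (Gbp2), against 5.01%. Both Irf4-/- arrays exceeded both wild-type arrays for 4 of 9, against 17.9% of all tested genes, and lay below them for 1 of 9, against 21.3%. With 2 against 2 arrays an exact permutation test cannot reach 0.05. Of the 9 log2 differences 7 were positive and 2 negative. Their median was 0.24, against -0.020 over all tested genes, and it was 0.0099 without Irf4-/- replicate 2 and 0.43 without Irf4-/- replicate 1.

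The calls for Gbp2, Gbp3 and Gbp7 depended on how background and variance were handled. With normexp background correction all 3 passed in limma, Gbp2 at a log2 difference of -0.69 (adjusted p = 0.0421), Gbp3 at 0.69 (adjusted p = 0.0326) and Gbp7 at 0.83 (adjusted p = 0.0229). In that fit 3.71% of all tested genes passed. With trend and robust moderation Gbp3 (adjusted p = 0.0208) and Gbp7 (adjusted p = 0.0277) passed, and 3.89% of all tested genes did. Over all 13 alternatives the log2 difference ran from -0.84 to -0.50 for Gbp2 and from 0.62 to 0.94 for Gbp3. For Gbp7 it ran from 0.64 to 1.14, and no alternative turned the sign of any of the 3 genes. Most alternatives could not have turned it. The filters, averaging of probes, moderation and replicate block leave the difference of a gene with 1 probe unchanged. Leaving out an array cannot turn the sign where the genotypes do not overlap. Only the background correction, the scaling and the authors' table could have done so. The adjusted p ran up to 0.970 for each of these 3 genes.

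Gbp2 and its neighbours, none of them called in the main fit, can also be compared within each array. There an array-wide scaling factor cancels, but an effect that depends on signal level does not. These pairs were chosen after their values were seen and carry no test. On the chromosome the genes follow each other as Gbp5, Gbp7, Gbp3, Gbp2b and Gbp2. Gbp3 minus Gbp2 was -3.14 and -3.23 in Irf4-/- cells, against -4.63 and -4.64 in wild-type cells. The gap between the 2 probes was thus narrower by 1.45 log2 units in Irf4-/- cells, a 2.73-fold shift in their ratio, with an SD of 0.061 between Irf4-/- arrays and 0.0063 between wild-type arrays. The shift was 1.38 with normexp and 1.44 with quantile normalization. Gbp7 minus Gbp2 was -4.34 and -4.10 in Irf4-/- cells, against -5.72 and -5.83 in wild-type cells, a shift of 1.56. Gbp5 shifted by 0.49 relative to Gbp2, and Gbp7 by 1.06 relative to Gbp5. The shift between Gbp3 and Gbp7 was -0.11. Gbp2b, which lies between Gbp3 and Gbp2, was not well above background on any array.

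Other GBP and IRG genes were read in the same way. Over all tested genes, 17.9% had both Irf4-/- arrays above both wild-type arrays, and 9582 of 20505 differences were positive. At an unadjusted p under 0.05 in limma, 6.35% of all tested genes were higher and 5.01% lower. Of 6 further GBP genes 4 were tested and 0 passed (limma; 0 at an unadjusted p under 0.05). All 4 differences were positive and 3 had both Irf4-/- arrays above both wild-type arrays. They lie in the chromosome 5 cluster with Gbp4. Gbp9 differed by 0.61 (limma, adjusted p = 0.493), Gbp6 by 0.73 (adjusted p = 0.513) and Gbp10 by 0.31 (adjusted p = 0.667), and the median of the 4 was 0.53. Of 11 further IRG and giant interferon-induced GTPase genes 9 were tested and 0 passed (limma; 1 higher at an unadjusted p under 0.05, 9930111J21Rik2). Their differences were positive for 6 and negative for 3, with a median of 0.16, and 4 had both Irf4-/- arrays above both wild-type arrays. In the chromosome 11 cluster, 9930111J21Rik2 differed by 0.85 (limma, adjusted p = 0.217) and the IRG gene Ifi47 by 0.32 (adjusted p = 0.725). Gm4951, in the same cluster as Iigp1, differed by 1.14 (limma, adjusted p = 0.511), and its second probe by 1.41. No probe mapped to the interferon-induced dynamin-like genes Mx1 and Mx2.

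**Figure D3:**
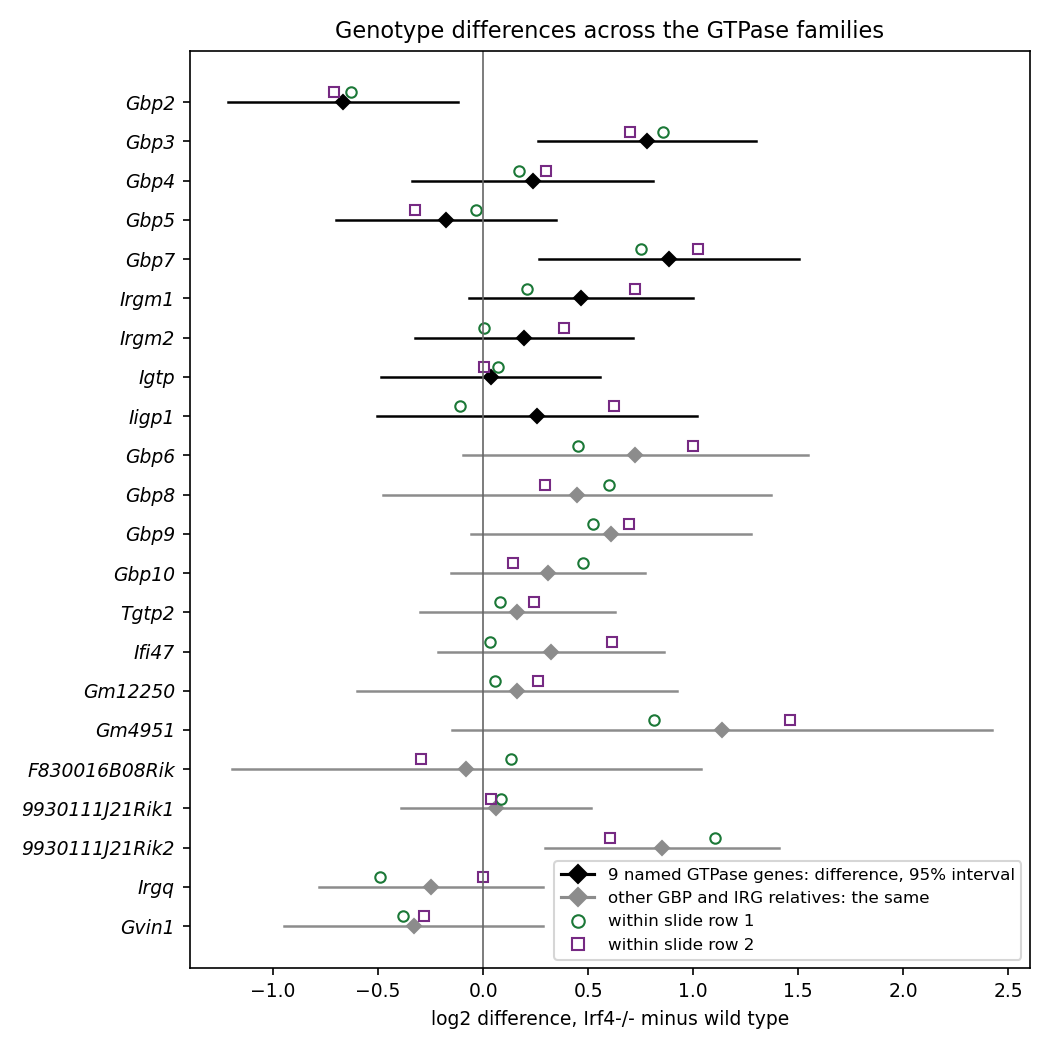
Log2 difference, Irf4-/- minus wild type (x axis), of the 9 measured genes (black diamonds) and 13 tested relatives (grey diamonds), with limma's 95% interval (lines) and the differences within slide row 1 (green circles) and row 2 (purple squares). Gbp2 lies farthest left at -0.67, Gbp3 and Gbp7 lie at 0.78 and 0.89, and the relative Gm4951 lies farthest right at 1.14; both rows give the same sign for 8 of the 9 measured genes, all but Iigp1.

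The genes that carry the interferon gamma signal were described by the same measures. Of 10 tested, 0 passed (limma; 2 higher and 1 lower at an unadjusted p under 0.05). The differences were positive for 7 and negative for 3, with a median difference of 0.29. In 7 genes both Irf4-/- arrays lay above both wild-type arrays, against 17.9% of all tested genes. At an unadjusted p under 0.05 in limma, 6.35% of all tested genes were higher and 5.01% lower. Ifng, the cytokine gene itself, was at 2.42 and 2.19 in Irf4-/- cells, against 1.92 and 1.74 in wild-type cells. The genotypes did not overlap, and the log2 difference was 0.48 (limma, adjusted p = 0.449). The receptor subunit gene Ifngr2 differed by 0.62 (adjusted p = 0.367) and the receptor kinase genes Jak1 by 0.49 (adjusted p = 0.416) and Jak2 by -0.58 (adjusted p = 0.336). Irf1 differed by 0.24 (limma, adjusted p = 0.806). Of 12 other interferon gamma targets tested, 0 passed (limma; 3 higher at an unadjusted p under 0.05). All 12 differences were positive, against 9582 of all 20505 tested genes, with a median of 0.24. Of the 12 genes, 8 had both Irf4-/- arrays above both wild-type arrays, against the same 17.9%. In this group the chemokine gene Cxcl10 differed by 3.06 (limma, adjusted p = 0.0600) and was above background on 1 of 2 wild-type arrays. The immunoproteasome gene Psmb10 differed by 0.58 (adjusted p = 0.358), and B2m, the class I light chain, by 0.50 (adjusted p = 0.364).

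Type I interferon targets gave larger differences. All 20 listed genes were tested, and 1 passed as higher in limma, against 0.493% of all tested genes. At an unadjusted p under 0.05 in limma 10 were higher, against 6.35%. All 20 differences were positive, against 9582 of all 20505 tested genes. In 14 genes both Irf4-/- arrays lay above both wild-type arrays, against 17.9%. The median difference of the 20 genes was 1.58. It was also 1.58 with the 2 genes that were dark on both wild-type arrays, Oasl2 and Ifi44, set at their lower bound. The other 18 ran from 0.23 to 4.81. The gene that passed was Oasl2, a relative of the oligoadenylate synthetases, whose signal was at least 43.8-fold higher in Irf4-/- cells (limma, adjusted p = 0.0318). It was not above background on either wild-type array, so its fold is a lower bound. Oas1a, an oligoadenylate synthetase gene, differed by 3.10 (limma, adjusted p = 0.0561) and Ddx58, the RNA sensor RIG-I, by 1.55 (adjusted p = 0.0657). The list was chosen with its shift on these arrays known, so its direction is not independent evidence. Of 8 tested genes of type I interferon reception and signalling, 0 passed (limma; 3 higher at an unadjusted p under 0.05), 5 were positive and 3 negative, with a median of 0.20. Usp18, an interferon-induced feedback inhibitor, differed by 1.64 (limma, adjusted p = 0.244) and Irf7, an interferon-induced transcription factor, by 2.12 (adjusted p = 0.289). The receptor gene Ifnar2 differed by 0.58 (limma, adjusted p = 0.316) and Irf9, a transcription factor of the type I response, by -0.055 (adjusted p = 0.986). No test compared the lists.

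Genes that act with GBPs and IRGs in autophagy, at vacuoles or in inflammasomes had a median difference near 0. Of 12 tested, 0 passed (limma; 0 at an unadjusted p under 0.05), 6 were positive and 6 negative, and the median was 0.0094. Casp4, which encodes the inflammatory caspase-11 of mice that GBPs help to activate, differed by -0.80 (limma, adjusted p = 0.520). The ubiquitin-like autophagy genes Gabarap and Gabarapl2, whose products help to steer IRGs and GBPs to vacuoles, differed by 0.29 (adjusted p = 0.667) and 0.20 (adjusted p = 0.823). Of 9 interferon regulatory factor genes tested, 0 passed (limma; 1 higher, Irf7, and 1 lower, Irf4, at an unadjusted p under 0.05), 4 were positive and 5 negative, with a median of -0.035. Over all tested genes, 0.493% passed as higher and 0.244% as lower. At an unadjusted p under 0.05 in limma the shares were 6.35% and 5.01%.

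**Figure D4:**
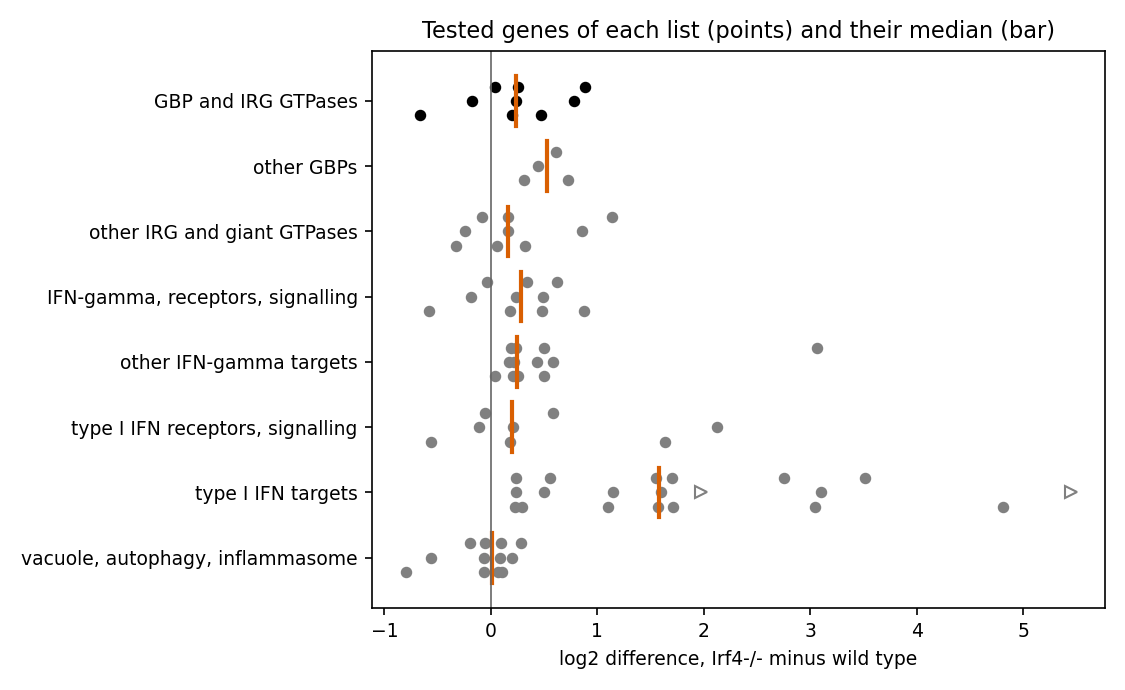
Log2 difference, Irf4-/- minus wild type (x axis), of each tested gene of 8 lists (points, spread vertically only to separate them) with the list's median (orange bars); open triangles mark lower bounds. The 9 GBP and IRG genes run from -0.67 to 0.89 around a median of 0.24, and the other interferon gamma targets have a median of 0.24; the 18 type I interferon targets without a bound reach 4.81, and that list has a median of 1.58.

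Replicate 2 was higher than replicate 1 for all 9 measured genes in Irf4-/- cells, with a median gap of 0.37, and for 7 of 9 in wild-type cells, with a median gap of 0.26. Over all tested genes the median gap was -0.072 in Irf4-/- cells and -0.031 in wild-type cells. Replicate 2 was the higher one for 8468 of all 20505 tested genes in Irf4-/- cells and for 9475 in wild-type cells. The genotype difference of the 9 genes had a median of 0.069 within slide row 1 and 0.39 within row 2. The 20 type I interferon targets had the same order, with medians of 1.19 in row 1 and 2.08 in row 2. Replicate 2 was higher for 20 of 20 of them in Irf4-/- cells and for 15 of 20 in wild-type cells. Both rows gave a positive difference for 6 of the 9 genes, against 6007 of all 20505 tested genes. Both gave a negative one for 2 of the 9, against 6873, and the sign of Iigp1 differed between rows. Where the genotypes do not overlap, as for Gbp2, Gbp3 and Gbp7, the sign could not differ between rows. Replicate number and slide row coincide, so they cannot be told apart.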

How the data were processed

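Total RNA of 4 samples was hybridised to 1 one-colour Agilent array each. The deposited intensity is the background-subtracted processed signal, which the authors extracted with Feature Extraction 11.0.1.1 per the file headers (9.1 per the submitters' processing notes). A table of log2 values, likewise deposited by the authors, was found to equal log2 processed signal minus the array's 75th percentile, centred on each probe's mean and shifted by -0.015 to 0.029. Its column medians were -0.11 and 0.12 (Irf4-/-) and -0.17 and 0.10 (wild type), and it served as an alternative only.

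Control and flagged spots were left out, spots of 1 probe averaged, and log2 signals set relative to the 75th percentile of an array's non-control spots. Probes were named by accession through a RefSeq table (GRCm38.p6, used for names and gene order; the array design was built on mm9). Of 56605 probes, 32994 matched 22911 symbols and 23611 none. A gene's probe was the one with the highest mean signal, and it was tested if both arrays of 1 genotype or more read it well above background. Genotypes were compared with limma 3.58.1 in R 4.3.3 (lmFit, eBayes, 2 residual and 2.95 prior degrees of freedom), with Benjamini-Hochberg adjustment over all 20505 genes and a threshold of 0.05. The fit was also run on data simulated with the same SD for every gene, unlike these arrays, so that run checks only the code. A fold written "at least" sets the brighter mean against the lowest signal well above background on each dim array, or the probe's own if higher. Summed marker signals are log2 of summed linear values. The files hold no mean signal, so normexp (offset 50) used the median signal and the median background. The number of arrays limits the precision.

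The members and lists were chosen with earlier results of these data known. All members are named, and from each other list the 3 tested genes with the smallest adjusted p, with Ifng, Irf1, Irf4, Irf7 and Irf9 always; 1 further gene of this rule is not reported here. Tgtp2, Ifi44, Casp1, Ifnb1, the dark Gbp2b and single marker genes were added after their values were seen. Arrays correlated at r = 0.989 within Irf4-/- and 0.992 within wild type, and at 0.978 to 0.986 between genotypes. The labels name a day 2 harvest, and also a treatment text with shorter cultures; day 2 was taken.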

Additional observations from a re-analysis of the deposited data

How the results depend on the processing

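Over 13 alternatives for each of the 9 genes, 106 of 117 differences kept their direction and their side of the threshold. Of the others, 5 passed it (normexp, and trend with robust moderation, as given above) and 6 turned sign. The filters, the moderation and the replicate block cannot change a difference, only its p, so they could not turn a sign. Averaging probes could change only Irgm1. The turned values were 0.0072 for Gbp5 (without a replicate, -0.36 to 0.0072), -0.077 with normexp and -0.073 with median scaling for Igtp (without a replicate, -0.11 to 0.18, with -0.077 and -0.11 turned), and -0.13 for Iigp1 (without a replicate, -0.13 to 0.64). The cause was not tested. Members called numbered 3 with normexp and 2 with trend and robust moderation, against 0 otherwise. The count with both Irf4-/- arrays above both wild-type arrays was 2 with median scaling (10.1% of all tested genes), against 4 (17.9%). With normexp it was 3 (18.8%), as with quantile normalization (18.6%) and the authors' table (16.5%). It was 4 to 7 without a replicate, where 29.0% to 38.2% of all genes met it (7 without Irf4-/- replicate 1, against 29.0%). The members' median was 0.0099 to 0.43 without a replicate. Median scaling moved the median of all genes to -0.13, and testing all genes without the filter to 0.12.

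Genes called over the whole array numbered 151 (66.9% higher), against 760 with normexp (60.7% higher), 1042 with median scaling (57.0% higher), 797 with trend and robust moderation (61.0% higher), 260 in the authors' table, 1 with quantile normalization and 0 without the filter (limma, 2099 unadjusted). With the replicate block, which equals slide row, limma called 0 (3195 unadjusted) and 0 members. Same-numbered arrays deviated together at r = 0.348, but 2 pairs do not establish pairing. Without a replicate limma called 0 to 487: 0 without wild-type replicate 1 (1864 unadjusted) or 2 (1678 unadjusted), 208 without Irf4-/- replicate 2 and 487 without Irf4-/- replicate 1. In these fits the lone array was assumed to vary like the other genotype's.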

Other observations

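Casp1 and Casp4, which encode inflammatory caspases downstream of GBPs, differed between slide rows. Casp1 was at 1.04 and -0.42 on the Irf4-/- arrays, against 0.69 and 1.05 on the wild-type arrays, so the genotype difference was 0.34 in row 1 and -1.47 in row 2. Casp4 was at 1.33 and 0.48 on the Irf4-/- arrays, against 1.45 and 1.96 on the wild-type arrays, with -0.12 in row 1 and -1.48 in row 2. Irf4-/- replicate 2, in which all 9 GBP and IRG genes were higher than in Irf4-/- replicate 1, was thus the lower of the Irf4-/- arrays for both caspase genes. Both were named after their values were seen, and the row difference was not tested. Ifnb1, the interferon beta gene, was at -4.99 and -3.74 in Irf4-/- cells against -5.37 and -4.39 in wild-type cells. It was well above background on Irf4-/- replicate 2 and on none of the other 3 arrays. On that replicate the lowest signal well above background was -3.93, so the reading was near the floor. Ifnb1 was too dim to test and was named after its values were seen.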
